A study of Mus musculus with 15 samples.

Results

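The comparison described here sets metastases from mice on a methionine-restricted diet (25% of normal methionine, n = 3 libraries) against metastases from mice on a methionine-adequate diet (n = 3). Members were chosen by the diet label alone, which takes 6 of the 15 libraries of the series, and the results cover all genes in them. Both groups came from male C57BL/6J mice that were 8 weeks old when 100000 cells of B16-F10.1 were injected into the tail vein. B16-F10.1 is a mouse melanoma line of C57BL/6 origin, so host and tumour share a strain and host RNA cannot be told from tumour RNA by sequence. Tumours grew in the lung for 21 days before the mice went onto a diet for 2 weeks, so the diet acted on established metastases. The other diets of the series, without methionine (0%, n = 3) and with 300% methionine (n = 6), were used only to share an estimate of the spread and to see where restricted libraries differed from them. Nothing in the labels ties a library to its own animal. The spread behind each p-value is therefore that between libraries and may in part be technical.

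Methionine is an essential amino acid that starts nearly every protein. It is also converted to S-adenosylmethionine, the donor for methylation of DNA, histones, RNA and small molecules, and feeds polyamine, cysteine and glutathione synthesis. Cells that lack an amino acid are known to activate the kinase GCN2 and the transcription factor ATF4, which raises genes for amino acid synthesis and uptake. Melanoma lines such as this one make pigment, and metastases in the lung also hold vessels, fibroblasts, immune cells and remnants of the air spaces.

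Gene levels are given as CPM, counts scaled to library size after TMM normalization, in the order of replicates 1, 2 and 3. Restricted libraries held 18222247, 20687383 and 15209463 counts, against 23006314, 18836108 and 22150281 in adequate libraries. Markers of the melanocyte lineage were high in all 6 libraries, with Tyr, the first enzyme of melanin synthesis, at 711, 570.5 and 574 CPM in restricted, against 760.0, 521 and 815 CPM in adequate libraries. Surfactant protein C, Sftpc, which marks alveolar type 2 cells of normal lung, stood at 86.2, 2.32 and 181 CPM in restricted, against 256, 266 and 42.6 CPM in adequate libraries, so restricted replicate 2 held least of that lung marker. Adequate replicate 1 stood apart in another way: 2 unnamed gene IDs with identical counts took 36.4% of its counts, against 16.5% to 19% in the other 5 libraries, and its TMM factor was 0.69. In a principal component analysis of the 6 libraries, with 26.5% and 23.6% of the variance on the first 2 axes, neither axis separated the diets.

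No gene passed the edgeR quasi-likelihood test after Benjamini-Hochberg adjustment over 16001 genes (0 genes, 0.0%), and the smallest adjusted p was 0.102. At an unadjusted p under 0.05 there were 779 genes higher in restricted libraries (4.87%) and 689 lower (4.31%), 1468 genes in all (9.17%). DESeq2, run as an alternative, called 83 genes higher (0.519%) and 44 lower (0.275%), and limma-voom called 0. All 3 restricted libraries lay above all 3 adequate libraries in 1339 genes (8.37%), and below them in 1324 genes (8.27%). Log2 fold changes are restricted over adequate throughout; their median over all genes was 0.005, with 50.4% of genes above 0 and 49.6% below. Gene lists below are read against these shares, and a count at a p under 0.05 uses the unadjusted edgeR p.

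**Figure D1:**
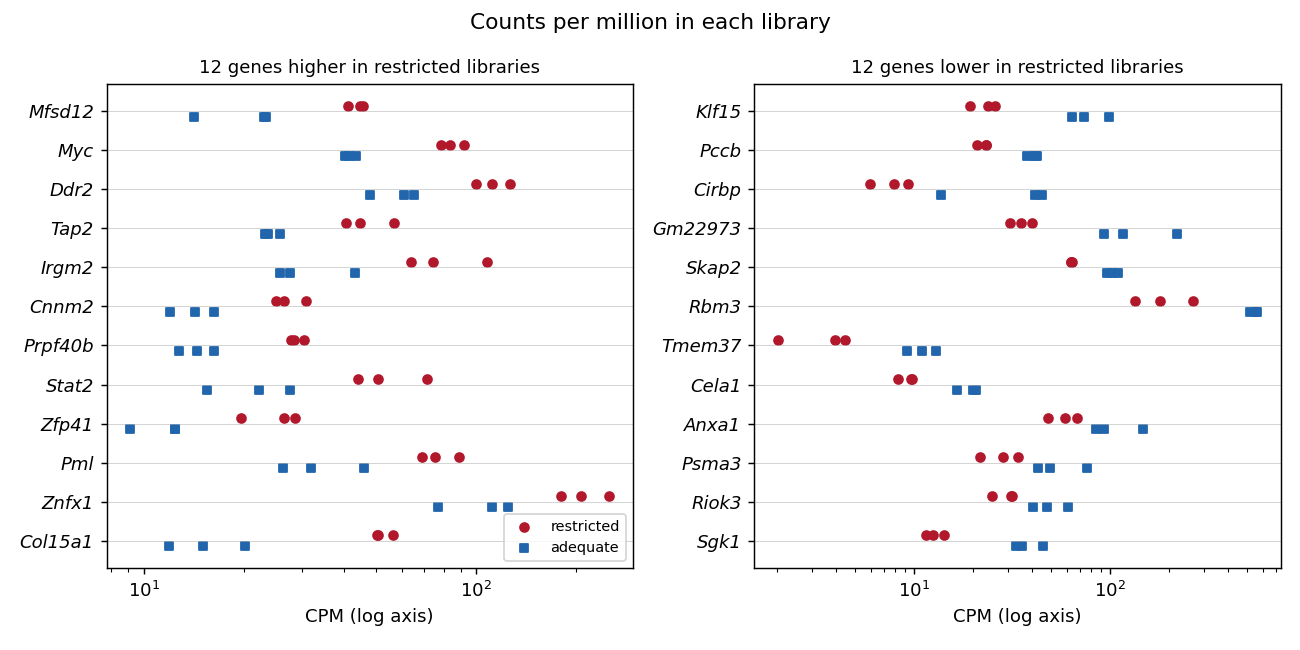
CPM on a log axis in each of the 3 restricted libraries (red circles) and the 3 adequate libraries (blue squares), for the 12 genes with the smallest p in each direction among those whose libraries do not overlap. Red and blue points are apart in every row by the choice of genes, and in Col15a1 and Klf15 the gap is wide compared with the spread within a diet.

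Of the 34 lists described, interferon genes had the most members higher in restricted libraries. Interferons bind receptors that activate STAT2 and IRF9, and these factors bind the interferon-stimulated response element, a pair of GAAA letters set apart by a short spacer, in the promoters of antiviral genes. Of 70 tested members of the list, 67 had a log2 fold change above 0 with a median of 0.82, against 50.4% and 0.005 over all genes. There were 39 members higher at an unadjusted p under 0.05, against 4.87% of all genes, and none lower. The libraries did not overlap in 29 members, all higher, against 8.37% of all genes, and DESeq2 called 14 members (all genes 0.519%).

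The promoters of the 4 list members with the smallest p that hold the element before the start are shown first, since this element is the known binding site of the factors just named. Each is the 250 bases before the RefSeq start in GRCm38.p6, read 5′ to 3′ on the gene's strand, with the element, GAAA and GAAA again after any 2 bases on either strand, in capitals. The genes are Irgm2 (chr11:58214727-58214976, plus strand), Igtp (chr11:58199306-58199555, plus strand), Stat2 (chr10:128270248-128270497, plus strand) and Gbp7 (chr3:142530086-142530335, plus strand).
Irgm2: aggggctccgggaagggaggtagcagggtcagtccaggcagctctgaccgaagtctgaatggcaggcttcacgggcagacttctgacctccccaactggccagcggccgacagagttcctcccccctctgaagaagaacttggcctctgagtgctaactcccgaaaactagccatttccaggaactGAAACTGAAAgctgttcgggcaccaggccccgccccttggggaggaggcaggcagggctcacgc
Igtp: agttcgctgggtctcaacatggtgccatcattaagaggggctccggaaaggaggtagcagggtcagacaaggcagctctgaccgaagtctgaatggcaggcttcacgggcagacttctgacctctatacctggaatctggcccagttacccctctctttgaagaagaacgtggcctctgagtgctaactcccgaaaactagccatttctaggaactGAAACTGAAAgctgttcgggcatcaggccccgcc
Stat2: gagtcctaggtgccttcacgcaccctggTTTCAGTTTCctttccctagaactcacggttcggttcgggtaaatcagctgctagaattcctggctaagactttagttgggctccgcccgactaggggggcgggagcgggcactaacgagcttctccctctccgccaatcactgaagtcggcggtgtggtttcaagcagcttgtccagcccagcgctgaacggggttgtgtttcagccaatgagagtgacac
Gbp7: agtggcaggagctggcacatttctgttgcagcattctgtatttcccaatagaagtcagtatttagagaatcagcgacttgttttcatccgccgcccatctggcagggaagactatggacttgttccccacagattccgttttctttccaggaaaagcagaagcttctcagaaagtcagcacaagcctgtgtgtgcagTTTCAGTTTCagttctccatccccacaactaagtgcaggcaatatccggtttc
The element begins 64 bases before the start in Irgm2 and 34 bases before it in Igtp, in both cases read forward as GAAACTGAAA. In Stat2 and Gbp7 the same letters lie on the other strand, read as TTTCAGTTTC, 222 and 53 bases before the start. Irgm2 and Igtp, neighbouring genes for related GTPases, share an unbroken run of 29 bases that holds the element, and a longer one of 55 bases further upstream.
In windows of 300 bases, which run from 250 before to 50 after the start, the element was present in 23 of 54 interferon genes that had a window (42.6%), against 440 of 11382 tested genes with a window (3.87%). All 8 GTPase genes with a window held it, against 3 of 7 sensors and 10 of 24 effectors. A match is a run of letters and does not show that a factor is bound there in these tumours.

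The interferon-inducible GTPases, which attack the vacuoles of intracellular microbes, had the highest median of any role in the list (1.24 over 11 genes, all above 0). Irgm2 stood at 74.2, 63.7 and 108 CPM in restricted, against 43.4, 27.6 and 25.7 CPM in adequate libraries, a log2 fold change of 1.35 with an SE of 0.26 (edgeR adjusted p = 0.16). Its neighbour Igtp was at 59.6, 47.4 and 114 CPM in restricted, against 40.5, 20.96 and 20.5 CPM in adequate libraries (1.43, edgeR adjusted p = 0.241). Gbp7 was at 55.4, 45.5 and 77.4 CPM in restricted, against 34.5, 19.1 and 22.1 CPM in adequate libraries (1.24, edgeR adjusted p = 0.191). Restricted replicate 3 was the highest library for all 3 genes, and the groups did not overlap in any of them. Gbp4 had the widest difference of the role at a log2 fold change of 2.25, but its groups overlapped, with 5.36, 1.87 and 11.5 CPM in restricted, against 2.02, 1.103 and 0.819 CPM in adequate libraries. GTPases of this family resemble each other closely, and the counting may split reads between them, so single values of the family are uncertain.

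Sensors of foreign or misplaced nucleic acid were also higher, with all 11 above 0 and a median of 0.81. The groups did not overlap in 8 of them (all genes 8.37%). Zbp1, which senses Z-form nucleic acid and can start cell death, was at 9.51, 9.08 and 30.6 CPM in restricted, against 7.56, 2.26 and 2.82 CPM in adequate libraries, a log2 fold change of 1.97 with an SE of 0.52 (edgeR adjusted p = 0.287). Ddx58, which encodes the RNA sensor RIG-I, was at 132, 162 and 206 CPM in restricted, against 83.1, 82.2 and 94.5 CPM in adequate libraries, a log2 fold change of 0.94 with an SE of 0.20 (edgeR adjusted p = 0.191). For both genes every restricted library lay above every adequate one. Among the transducers, Stat2 was at 50.6, 44.1 and 71.1 CPM in restricted, against 27.6, 15.5 and 22.3 CPM in adequate libraries, a log2 fold change of 1.34 with an SE of 0.26 (edgeR adjusted p = 0.16). All 3 restricted libraries again lay above the adequate ones. The transducer list of 8 genes had a median of 0.76, while the 4 receptor genes had 0.26, with Ifnar2 of the type I receptor at 0.39.

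Effectors were the widest group, 31 genes with a median of 0.78, of which 17 were higher at an unadjusted p under 0.05 (all genes 4.87%). Oas2, which makes the second messenger that activates RNase L, was at 81.7, 54.7 and 88.7 CPM in restricted, against 29.8, 11.3 and 20.9 CPM in adequate libraries, a log2 fold change of 1.86 with an SE of 0.46 (edgeR adjusted p = 0.25). Helz2, a helicase, was at 187, 141 and 187 CPM in restricted, against 57.5, 68.9 and 87.1 CPM in adequate libraries, a log2 fold change of 1.27 with an SE of 0.27 (edgeR adjusted p = 0.183). Parp14, an ADP-ribosyltransferase, was at 77.7, 54.4 and 90.6 CPM in restricted, against 38.8, 30.6 and 28.01 CPM in adequate libraries, a log2 fold change of 1.19 with an SE of 0.27 (edgeR adjusted p = 0.199). None of these 3 overlapped between diets. The classical marker Isg15, a ubiquitin-like protein, did not follow them: it was at 36.9, 40.7 and 58.5 CPM in restricted, against 83.7, 17.9 and 26.96 CPM in adequate libraries (0.08, edgeR adjusted p = 0.976), with adequate replicate 1 the highest of the 6 libraries. Pml, the scaffold of nuclear bodies and known to be induced by interferon though outside the list, was at 75.5, 68.96 and 89.3 CPM in restricted, against 26.3, 31.99 and 45.97 CPM in adequate libraries. Znfx1, a helicase of the antiviral response also outside the list, was at 252, 181 and 208 CPM in restricted, against 76.7, 112 and 125 CPM in adequate libraries. Of 5 restraints of the pathway 3 were above 0: Adar, which edits double-stranded RNA, had a log2 fold change of 0.70 with an SE of 0.17 (edgeR adjusted p = 0.259), and Socs1, an inhibitor of the receptor kinases, had a log2 fold change of 1.02 with an SE of 0.38 (edgeR adjusted p = 0.442).

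**Figure D2:**
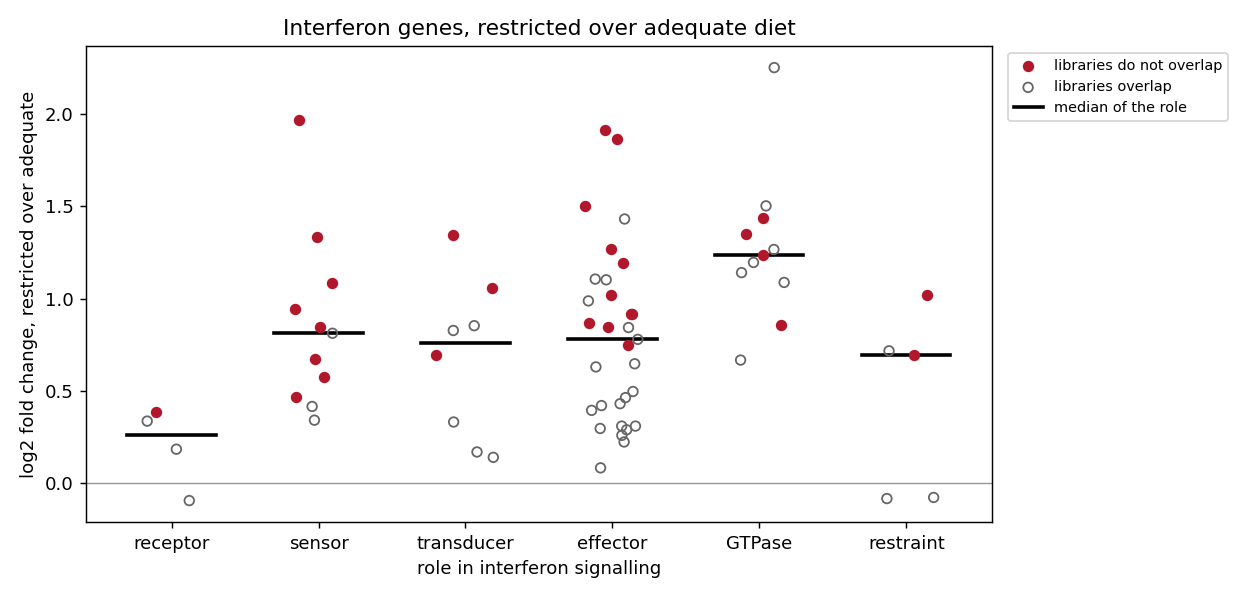
Log2 fold change of restricted over adequate for each tested interferon gene, grouped by role, with filled points where all restricted libraries lie above all adequate ones and a bar at each role's median. GTPases have the highest median (1.24) and receptors the lowest (0.26), and 67 of 70 points lie above 0.

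The ligands themselves were at the limit of detection. Ifna4 and Ifng had 0 counts in all 6 libraries, Ifnb1 had 1, 0 and 2 counts in the restricted libraries, against 0 in each adequate library, and Ifnk had 0, 0 and 3 counts in restricted libraries, against 2, 0 and 0 in adequate libraries. The mean log2 CPM of the whole interferon list was 5.36, 5.24 and 5.95 in the restricted libraries, against 5.15, 4.44 and 4.54 in the adequate libraries. Adequate replicate 1 was thus close to the restricted libraries, and restricted replicate 3 the highest of all. Leaving out each library in turn gave list medians of 0.55 to 1.07. Over the deficient libraries, restricted libraries had a list median of 0.11, with 1 of 70 members higher at an unadjusted p under 0.05 (all genes 2.28%, or 7.44% in either direction). Over the supplemented libraries the median was 0.34, with 11 of 70 higher (all genes 1.08%, or 2.18% in either direction) and none lower. Restricted replicate 3 also had the highest level of the lymphocyte list. The lymphocyte levels were -0.91, -1.94 and 0.29 in the restricted libraries, against -0.83, -1.04 and -1.35 in the adequate libraries. Cd3e, which defines T cells, had 3, 6 and 1 counts in restricted libraries, against 0, 5 and 0 in adequate libraries. The T cell markers Cd4 (23, 5 and 53 counts, against 9, 26 and 15) and Cd8a (4, 8 and 19, against 1, 6 and 7) were highest in restricted replicate 3. The part of lymphocytes in the interferon result was not tested.

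Antigen presentation by MHC class I, through which cells show peptides to cytotoxic T cells, is itself induced by interferon. Of 19 tested genes 16 were above 0 with a median of 0.40. At an unadjusted p under 0.05, 5 were higher (all genes 4.87%) and none lower. The groups did not overlap in 6, all higher (all genes 8.37%). The median was 0.255 without restricted replicate 3 and 0.19 without adequate replicate 3. Tap2, a chain of the peptide transporter, was at 44.8, 40.6 and 56.8 CPM in restricted, against 23.6, 23.1 and 25.8 CPM in adequate libraries, a log2 fold change of 0.97 with an SE of 0.18 (edgeR adjusted p = 0.16). Its partner Tap1 was at 82.8, 75.9 and 137 CPM in restricted, against 53.6, 51.2 and 52.7 CPM in adequate libraries, a log2 fold change of 0.91 with an SE of 0.24 (edgeR adjusted p = 0.295). Nlrc5, the transactivator of class I genes, was at 37.3, 47.4 and 85.3 CPM in restricted, against 17.6, 24.1 and 18.2 CPM in adequate libraries, a log2 fold change of 1.5 with an SE of 0.31 (edgeR adjusted p = 0.179). All 3 were separated between diets. B2m, the light chain, was at 1099, 1221 and 1880.0 CPM in restricted, against 1054, 823 and 870.4 CPM in adequate libraries, a log2 fold change of 0.61 with an SE of 0.28 (edgeR adjusted p = 0.519). In MHC class II, the presentation route of macrophages, dendritic cells and B cells, 9 of 10 genes were above 0 (median 0.87, or 0.115 without restricted replicate 3). Of them 1, the transactivator Ciita, had a p under 0.05 (all genes 4.87%). H2-Ab1 overlapped at 27.9, 8.42 and 63.4 CPM in restricted, against 23.4, 19.7 and 16.7 CPM in adequate libraries. The checkpoint ligand gene Cd274, which encodes PD-L1, was at 25.2, 25.1 and 24.2 CPM in restricted, against 18.1, 15.1 and 11.6 CPM in adequate libraries, a log2 fold change of 0.73 with an SE of 0.36 (edgeR adjusted p = 0.574). The chemokine Cxcl9 was at 4.75, 1.72 and 10.5 CPM in restricted, against 2.33, 1.805 and 1.09 CPM in adequate libraries and overlapped between diets.

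The lowest p among genes that were lower in restricted libraries belonged to Klf15, a transcription factor of fasting metabolism that glucocorticoids induce in several tissues. Klf15 was at 19.4, 23.9 and 25.9 CPM in restricted, against 63.9, 73.2 and 98.8 CPM in adequate libraries, a log2 fold change of -1.77 with an SE of 0.28 (edgeR adjusted p = 0.102). The highest restricted library was below the lowest adequate one by a wide margin. Its level was 32.7 to 37.5 CPM in the 3 deficient libraries and 26.4 to 52.8 CPM in the 6 supplemented libraries. The log2 fold change of restricted libraries was -0.62 with an SE of 0.28 (edgeR adjusted p = 0.663) over the deficient libraries and -0.77 with an SE of 0.25 (edgeR adjusted p = 1) over the supplemented libraries. Sgk1, a kinase that glucocorticoids and mineralocorticoids induce, was at 12.4, 14.1 and 11.4 CPM in restricted, against 33.1, 45.3 and 35.2 CPM in adequate libraries, a log2 fold change of -1.58 with an SE of 0.39 (edgeR adjusted p = 0.259). Its level was 19.4, 22.5 and 73.55 CPM in the deficient libraries, with replicate 3 far above replicates 1 and 2. In the 6 supplemented libraries it was 15 to 26.75 CPM. For Sgk1 the difference was -1.60 with an SE of 0.39 (edgeR adjusted p = 0.649) over the deficient libraries and -0.75 with an SE of 0.34 (edgeR adjusted p = 1) over the supplemented libraries.

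Of the 25 tested genes of the glucocorticoid list, 20 were below 0 with a median of -0.48, 5 were lower at an unadjusted p under 0.05 (all genes 4.31%) and none higher. Per1, a clock repressor that glucocorticoids also induce, was at 33.8, 19.2 and 22.6 CPM in restricted, against 36.98, 81.5 and 80.3 CPM in adequate libraries, a log2 fold change of -1.39 with an SE of 0.59 (edgeR adjusted p = 0.492). Other targets were lower with overlap: Tsc22d3, which encodes GILZ, was at 11.9, 9.18 and 15.7 CPM in restricted, against 25.3, 26.4 and 12.7 CPM in adequate libraries (edgeR adjusted p = 0.684), and Fkbp5, a chaperone of the receptor, at 42.1, 40.7 and 40.2 CPM in restricted, against 35.4, 74.3 and 59.4 CPM in adequate libraries (edgeR adjusted p = 0.741). Nr3c1, the receptor gene, was at 46.6, 44.7 and 67.6 CPM in restricted, against 46.3, 56.9 and 45.6 CPM in adequate libraries, with no separation. Over the deficient libraries 8 of 25 list genes were lower at an unadjusted p under 0.05 (all genes 5.16%) and 2 higher (all genes 2.28%). The list's mean log2 CPM overlapped there, at 3.93, 3.41 and 3.78 in restricted, against 3.75 to 5.06 in deficient libraries. Over the supplemented libraries 3 of 25 were lower (all genes 1.1%) and 2 higher (all genes 1.08%). The clock list of 20 genes had a median of -0.14, and 2 of its genes, Per1 among them, were lower at a p under 0.05 (all genes 4.31%). The labels give no time of day for the collections.

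Cirbp and Rbm3, RNA-binding proteins known to be induced when cells are cooled, were lower in restricted libraries; of the 5 cold-inducible genes tested 3 were below 0. Cirbp was at 5.92, 9.23 and 7.83 CPM in restricted, against 13.7, 41.3 and 44.7 CPM in adequate libraries, a log2 fold change of -2.12 with an SE of 0.41 (edgeR adjusted p = 0.16). Rbm3 was at 134, 264 and 180.3 CPM in restricted, against 553, 517 and 558 CPM in adequate libraries, a log2 fold change of -1.49 with an SE of 0.34 (edgeR adjusted p = 0.199). Adequate replicate 1 was well below the other adequate libraries for Cirbp but within their range for Rbm3. Heat shock genes were on the other side, with 8 of 10 above 0: Hsf1, their main transcription factor, had a log2 fold change of 0.61 with an SE of 0.18 (edgeR adjusted p = 0.368), and Hspa1a, an inducible chaperone, was at 3.32, 3.43 and 4.19 CPM in restricted, against 1.76, 0 and 0.455 CPM in adequate libraries (2.31, edgeR adjusted p = 0.676). Over the deficient libraries the log2 fold change was -0.70 (edgeR adjusted p = 0.734) for Cirbp and -0.44 (edgeR adjusted p = 0.823) for Rbm3.

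**Figure D3:**
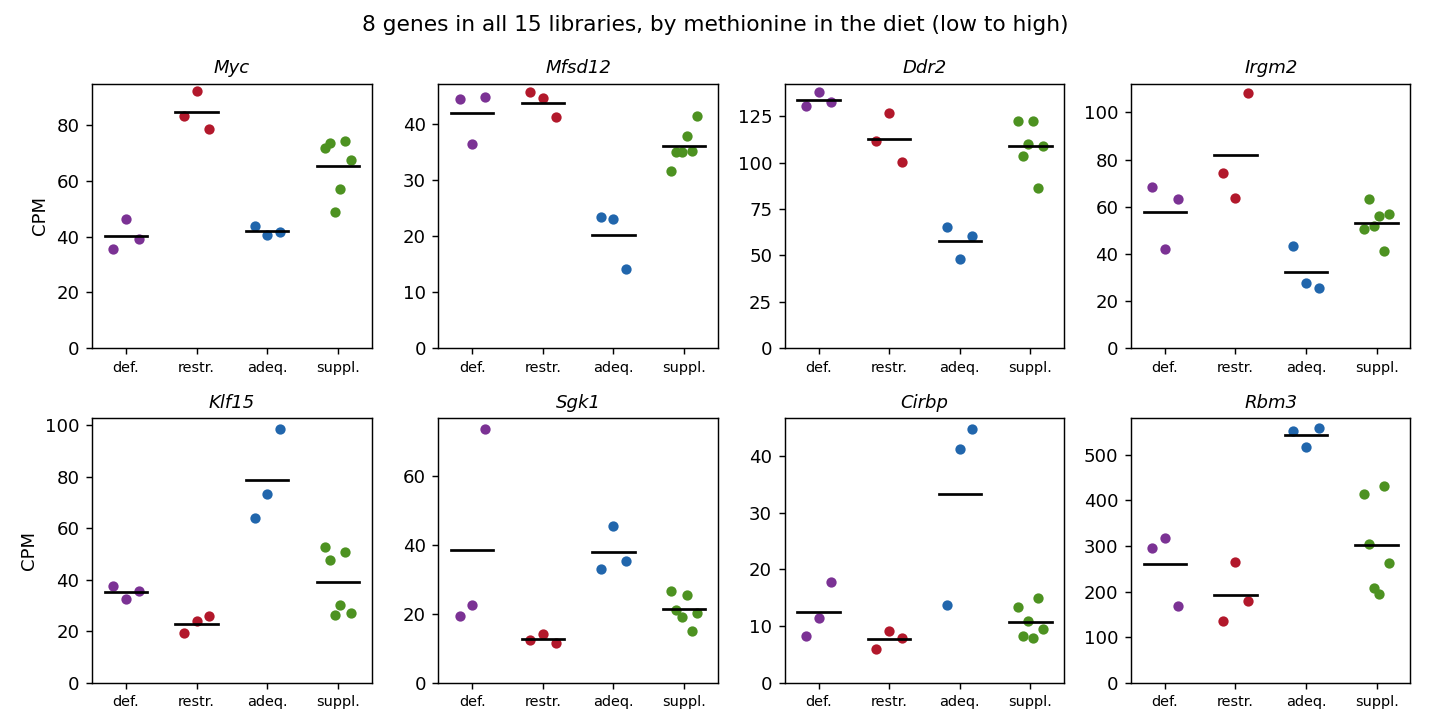
CPM of 8 genes in all 15 libraries, by methionine in the diet from deficient (0%) through restricted and adequate to supplemented (300%), with a bar at each diet's mean. Klf15, Cirbp and Rbm3 have their highest mean in the adequate diet, Mfsd12, Ddr2 and Irgm2 their lowest there, and Myc is high in restricted and supplemented libraries but near the adequate level in deficient ones.

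Myc, the growth-promoting transcription factor, was at 83.4, 92.1 and 78.5 CPM in restricted, against 43.7, 40.4 and 41.5 CPM in adequate libraries, a log2 fold change of 1.02 with an SE of 0.17 (edgeR adjusted p = 0.114). The gap between the lowest restricted and the highest adequate library was wider than the spread within either diet. The log2 fold change of Myc was 1.07 with an SE of 0.17 (edgeR adjusted p = 0.27) over the deficient libraries and 0.37 with an SE of 0.15 (edgeR adjusted p = 1) over the supplemented libraries. Genes that Myc is known to activate in ribosome and nucleotide synthesis did not share the direction: of 22 tested targets 17 were below 0, with a median of -0.24. Wdr12, a ribosome assembly factor, was at 15.2, 10.9 and 17.02 CPM in restricted, against 31.4, 28.2 and 23.1 CPM in adequate libraries, a log2 fold change of -0.94 with an SE of 0.28 (edgeR adjusted p = 0.372). Odc1, the first enzyme of polyamine synthesis and a classical Myc target, was at 219.9, 241 and 212 CPM in restricted, against 463, 302 and 302 CPM in adequate libraries, a log2 fold change of -0.67 with an SE of 0.30 (edgeR adjusted p = 0.527). Over all 34 tested genes of the Myc network the median was -0.14. Myc was the sole gene higher at an unadjusted p under 0.05 (all genes 4.87%), and 2 were lower (all genes 4.31%).

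Genes of the G2 phase and mitosis had log2 fold changes above 0 in 38 of 43 cases, with a median of 0.39. There were 12 members higher at an unadjusted p under 0.05 (all genes 4.87%) and none lower. The groups did not overlap in 13, all higher (all genes 8.37%). Tpx2, a spindle assembly factor, was at 85.1, 94.9 and 86.9 CPM in restricted, against 55.7, 44.2 and 73.8 CPM in adequate libraries, a log2 fold change of 0.62 with an SE of 0.19 (edgeR adjusted p = 0.388). Cdca2, which recruits a phosphatase to chromosomes, was at 44.5, 47.2 and 48.5 CPM in restricted, against 24.7, 25.3 and 33.7 CPM in adequate libraries, a log2 fold change of 0.74 with an SE of 0.21 (edgeR adjusted p = 0.349). Mki67, the proliferation marker Ki-67, was at 197, 206 and 228 CPM in restricted, against 61.4, 94.7 and 198 CPM in adequate libraries, a log2 fold change of 0.83 with an SE of 0.30 (edgeR adjusted p = 0.434); adequate replicate 3 reached the restricted range, so the groups overlapped. Adequate replicate 2 was the lowest of the 6 libraries for the list as a whole, whose levels were 5.58, 5.76 and 5.76 in the restricted libraries, against 5.48, 4.88 and 5.55 in the adequate libraries. Without that library the median was 0.22. Over the deficient libraries, 21 of 43 members were higher at an unadjusted p under 0.05 (all genes 2.28%), with a median of 0.52. The G1/S and replication list had 29 of 37 genes above 0 and a median of 0.17, which was -0.04 without adequate replicate 2.

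Targets of p53, the tumour suppressor that halts the cycle or starts apoptosis, were lower in 16 of 19 cases with a median of -0.42. There were 5 lower at an unadjusted p under 0.05 (all genes 4.31%) and none higher. The groups did not overlap in 8, all lower (all genes 8.27%). Phlda3, an inhibitor of the kinase AKT, was at 43.9, 54.2 and 52.5 CPM in restricted, against 104, 88.6 and 81.8 CPM in adequate libraries, a log2 fold change of -0.87 with an SE of 0.22 (edgeR adjusted p = 0.27). Mdm2, which degrades p53 and is its target, was at 55.95, 57.96 and 54.6 CPM in restricted, against 84.99, 71.5 and 69.7 CPM in adequate libraries, a log2 fold change of -0.42 with an SE of 0.17 (edgeR adjusted p = 0.469). Cdkn1a, the cell cycle inhibitor p21, was at 61.8, 59.9 and 47.4 CPM in restricted, against 72.6, 91.9 and 71.2 CPM in adequate libraries, a log2 fold change of -0.48 with an SE of 0.30 (edgeR adjusted p = 0.683). The 3 genes were separated between diets, and medians of the list ran from -0.49 to -0.35 with each library left out in turn.

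Cholesterol synthesis genes, which the factor SREBP2 controls, were above 0 in 25 of 30 cases with a median of 0.36. There were 8 higher at an unadjusted p under 0.05 (all genes 4.87%) and none lower, and the median was 0.175 without restricted replicate 1. Sqle, squalene epoxidase, was at 138, 123 and 88.7 CPM in restricted, against 51.8, 54.8 and 75.1 CPM in adequate libraries, a log2 fold change of 0.95 with an SE of 0.25 (edgeR adjusted p = 0.287). Srebf2, which encodes SREBP2 itself, was at 302, 246 and 221 CPM in restricted, against 100.5, 144 and 205 CPM in adequate libraries, a log2 fold change of 0.77 with an SE of 0.26 (edgeR adjusted p = 0.407). Neither overlapped between diets. Over the deficient libraries 13 of 30 were higher at an unadjusted p under 0.05 (all genes 2.28%) and 2 lower (all genes 5.16%). Over the supplemented libraries 5 of 30 were higher (all genes 1.08%) and 1 lower (all genes 1.1%).

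**Figure D4:**
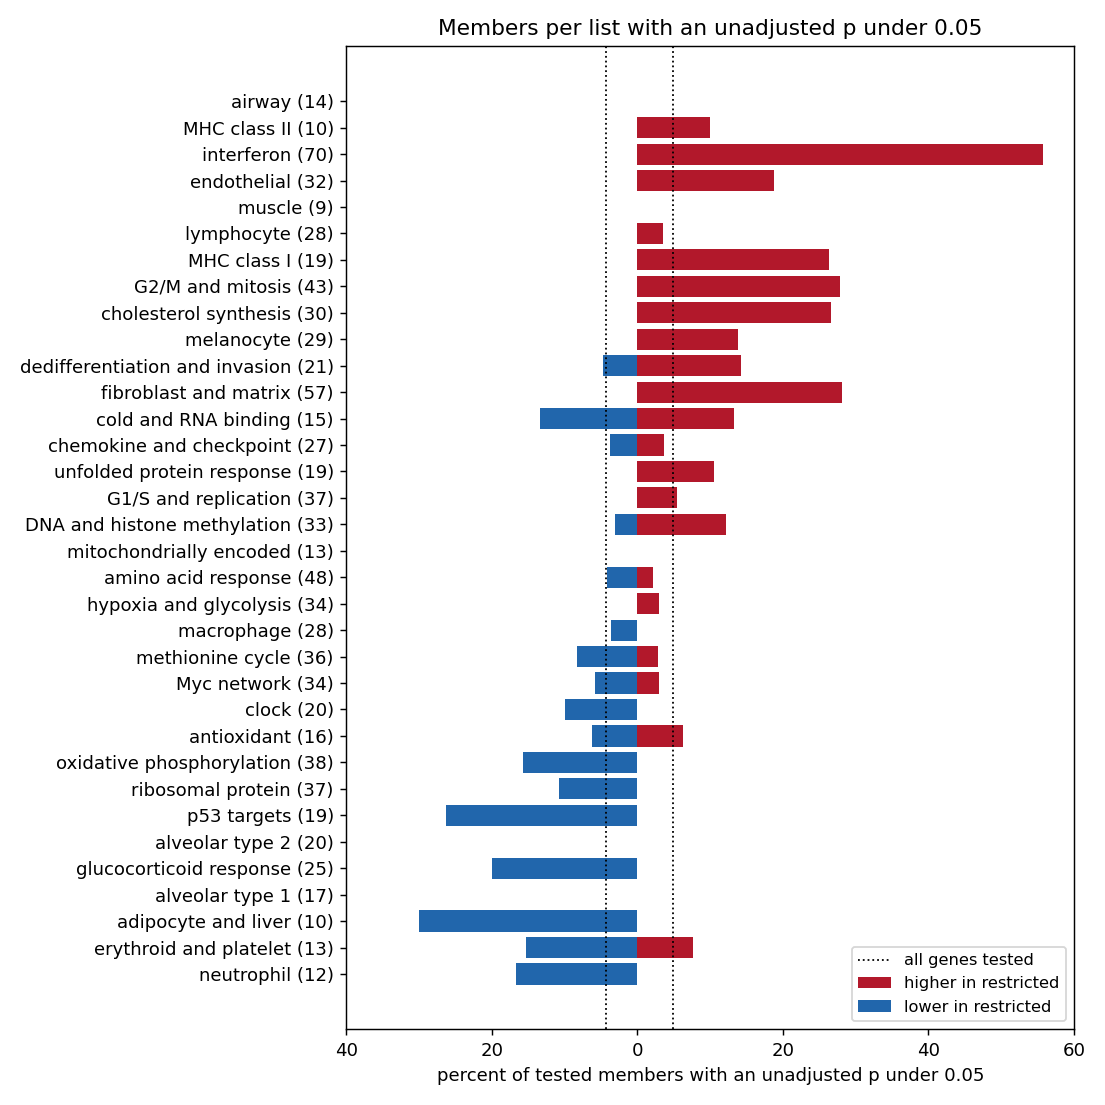
Percent of tested members of each gene list with an unadjusted p under 0.05, to the right for higher and to the left for lower in restricted libraries; the number tested stands in brackets and dotted lines mark the shares over all genes (4.87% higher, 4.31% lower). The interferon bar is the longest at 39 of 70 members, and lists are ordered by median log2 fold change.

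Collagen and fibroblast genes were higher in restricted libraries, with 41 of 57 above 0 and a median of 0.36. At an unadjusted p under 0.05, 16 were higher (all genes 4.87%) and none lower. The median was 0.17, 0.59 and 0.57 without adequate replicates 1, 2 and 3. In bulk tissue fewer cells of a type and less RNA per cell cannot be told apart, which holds for every cell type list here. Col15a1, a collagen of vessel and muscle basement membranes, was at 56.4, 50.4 and 50.9 CPM in restricted, against 11.9, 15.04 and 20.1 CPM in adequate libraries, a log2 fold change of 1.74 with an SE of 0.36 (edgeR adjusted p = 0.179). Thy1, a surface protein of fibroblasts, was at 16.1, 11.8 and 11.96 CPM in restricted, against 4.28, 2.11 and 4.09 CPM in adequate libraries, a log2 fold change of 1.93 with an SE of 0.50 (edgeR adjusted p = 0.274). Fbln1, a glycoprotein of elastic fibres and basement membranes, was at 147, 94.6 and 109.9 CPM in restricted, against 38.4, 43.1 and 58.4 CPM in adequate libraries, a log2 fold change of 1.33 with an SE of 0.33 (edgeR adjusted p = 0.261). None of these overlapped between diets. Col1a1, the main fibrillar collagen, was at 256, 157 and 239 CPM in restricted, against 44.9, 112 and 104 CPM in adequate libraries, a log2 fold change of 1.32 with an SE of 0.46 (edgeR adjusted p = 0.42), with adequate replicate 1 the lowest library. The fibroblast marker Pdgfrb was also separated, but Col3a1 overlapped, at 234, 79.7 and 320 CPM in restricted, against 117, 128.5 and 135 CPM in adequate libraries. The list's mean log2 CPM overlapped too, at 5.25, 4.85 and 5.23 in restricted, against 4.5, 4.98 and 4.71 in adequate libraries. Of its 9 crosslinking and protease genes 6 were below 0. Ddr2, a receptor tyrosine kinase that collagen activates, was at 112, 127 and 100.1 CPM in restricted, against 65.1, 48.1 and 60.7 CPM in adequate libraries, a log2 fold change of 0.96 with an SE of 0.17 (edgeR adjusted p = 0.114). The Ddr2 difference was -0.25 with an SE of 0.17 (edgeR adjusted p = 0.794) over the deficient libraries and 0.05 with an SE of 0.14 (edgeR adjusted p = 1) over the supplemented libraries.

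Endothelial genes were above 0 in 26 of 32 cases with a median of 0.73. At an unadjusted p under 0.05, 6 were higher (all genes 4.87%), and 16 had groups that did not overlap (all genes 8.37%). Without restricted replicate 1 the median was 0.44. Robo4, a receptor that stabilises vessels, was at 26.98, 28.1 and 20.6 CPM in restricted, against 4.85, 9.83 and 6.91 CPM in adequate libraries, a log2 fold change of 1.81 with an SE of 0.45 (edgeR adjusted p = 0.25). Apln, a peptide of sprouting vessels, was at 32.7, 85.9 and 23.98 CPM in restricted, against 17.5, 10.7 and 12.6 CPM in adequate libraries, a log2 fold change of 1.81 with an SE of 0.60 (edgeR adjusted p = 0.399). Nos3, the endothelial nitric oxide synthase, was at 10.9, 10.3 and 10.8 CPM in restricted, against 4.09, 6.17 and 3.91 CPM in adequate libraries, a log2 fold change of 1.18 with an SE of 0.43 (edgeR adjusted p = 0.434). Pecam1, the marker CD31, was separated but variable, at 62.8, 46.2 and 46.3 CPM in restricted, against 27.97, 39.6 and 25.9 CPM in adequate libraries (edgeR adjusted p = 0.795). The list's summed CPM was 1318, 1071 and 1039 in the restricted libraries, against 630.1, 884 and 895 in the adequate libraries. Over the deficient libraries the direction was the other way, with 12 of 32 lower at an unadjusted p under 0.05 (all genes 5.16%). The list's mean log2 CPM nevertheless overlapped, at 4.45, 3.84 and 4.02 in restricted, against 4.04 to 6.09 in deficient libraries. Mean log2 CPM of the alveolar genes was 5.51, 3.98 and 7.94 in the deficient libraries, so replicate 3 held most of those lung markers. The part of lung tissue in this difference was not tested.

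Melanocyte genes were above 0 in 26 of 29 cases with a median of 0.36, which was 0.24 without adequate replicate 2. All 12 melanosome genes were above 0, and 4 had a p under 0.05 (all genes 4.87%). Mfsd12, a melanosome transporter that imports cysteine and shapes pigment colour, was at 45.7, 44.8 and 41.2 CPM in restricted, against 23.4, 23.02 and 14.2 CPM in adequate libraries, a log2 fold change of 1.12 with an SE of 0.19 (edgeR adjusted p = 0.114). Slc24a5, an ion exchanger of the same compartment, was at 611, 793 and 663 CPM in restricted, against 339, 305 and 475 CPM in adequate libraries, a log2 fold change of 0.89 with an SE of 0.28 (edgeR adjusted p = 0.382). Gpr143, a receptor in the melanosome membrane, was at 29.6, 19.6 and 25.3 CPM in restricted, against 15.6, 11.3 and 18.3 CPM in adequate libraries, a log2 fold change of 0.72 with an SE of 0.28 (edgeR adjusted p = 0.47). All 3 were separated between diets, whereas the pigment enzyme Tyr, given above, had a log2 fold change of -0.18 (edgeR adjusted p = 0.877). For Mfsd12 the difference was 0.07 with an SE of 0.18 (edgeR adjusted p = 0.983) over the deficient libraries and 0.28 with an SE of 0.16 (edgeR adjusted p = 1) over the supplemented libraries. Of the markers of dedifferentiated, invasive melanoma, 14 of 21 were above 0, with 3 higher and 1 lower at a p under 0.05 (all genes 4.87% and 4.31%). Axl, a receptor kinase, was at 164, 116 and 207 CPM in restricted, against 77.9, 98.6 and 107 CPM in adequate libraries, a log2 fold change of 0.78 with an SE of 0.36 (edgeR adjusted p = 0.539).

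Methionine is rebuilt from homocysteine in the methionine cycle, whose branches lead to cysteine and polyamines. Of 36 tested genes 13 were above 0 with a median of -0.09. At an unadjusted p under 0.05, 1 was higher (all genes 4.87%) and 3 lower (all genes 4.31%). Cth, the last enzyme from methionine to cysteine, was at 1.94, 3.68 and 2.47 CPM in restricted, against 6.93, 5.57 and 6.68 CPM in adequate libraries, a log2 fold change of -1.24 with an SE of 0.56 (edgeR adjusted p = 0.517). Its groups did not overlap, and all 6 transsulfuration genes were below 0. Sat1, which acetylates polyamines for export, was at 27.8, 31.1 and 28.9 CPM in restricted, against 61.8, 31.4 and 34.6 CPM in adequate libraries, a log2 fold change of -0.54 with an SE of 0.23 (edgeR adjusted p = 0.494). Mat2a, the enzyme that makes S-adenosylmethionine in tumour cells and is known to respond to its loss, was at 113, 98.97 and 99.3 CPM in restricted, against 136, 90.01 and 93.6 CPM in adequate libraries, a log2 fold change of -0.04 with an SE of 0.28 (edgeR adjusted p = 0.984). Among the writers and erasers of methylation, 23 of 33 were above 0 with a median of 0.15, which was -0.03 without adequate replicate 1. At a p under 0.05 there were 4 higher (all genes 4.87%), with log2 fold changes of 0.53 in Carm1, 0.62 in Tet2, 1.41 in Tet1 and 0.59 in Dnmt1, and 1 lower (all genes 4.31%), Prmt6 at -0.44. Pccb, a subunit of propionyl-CoA carboxylase, which handles the carbon left when methionine is broken down, was at 20.9, 23.3 and 23.2 CPM in restricted, against 37.5, 42.2 and 41.2 CPM in adequate libraries, a log2 fold change of -0.84 with an SE of 0.16 (edgeR adjusted p = 0.16).

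The amino acid response list, with targets of ATF4, had 28 of 48 genes above 0 and a median of 0.05 (-0.095 without restricted replicate 2), with 1 higher and 2 lower at an unadjusted p under 0.05 (all genes 4.87% and 4.31%). Asns, asparagine synthetase and a standard readout of the pathway, was at 100.4, 146 and 114 CPM in restricted, against 164, 110.3 and 109 CPM in adequate libraries, a log2 fold change of -0.09 with an SE of 0.42 (edgeR adjusted p = 0.974). Trib3, a pseudokinase that ATF4 induces, was at 46.4, 63.9 and 39.8 CPM in restricted, against 65.7, 50.3 and 54.5 CPM in adequate libraries, a log2 fold change of -0.18 with an SE of 0.47 (edgeR adjusted p = 0.951). Chac1, which degrades glutathione, was at 25.1, 52.5 and 26.1 CPM in restricted, against 33.96, 38.3 and 28.01 CPM in adequate libraries, a log2 fold change of 0.05 with an SE of 0.42 (edgeR adjusted p = 0.987). The groups overlapped in all 3, and restricted replicate 2 was the highest restricted library in each.

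Genes of oxidative phosphorylation and of the cytosolic ribosome were lower almost without exception, 36 of 38 with a median of -0.32 and 36 of 37 with a median of -0.33. At an unadjusted p under 0.05 there were 6 and 4 members, all lower (all genes 4.31%). Atp5h, a subunit of ATP synthase, was at 58.6, 60.8 and 69.7 CPM in restricted, against 138, 69.9 and 79.6 CPM in adequate libraries, a log2 fold change of -0.60 with an SE of 0.22 (edgeR adjusted p = 0.436). Rps14, of the small ribosomal subunit, was at 318, 315 and 307 CPM in restricted, against 881, 389.5 and 346 CPM in adequate libraries, a log2 fold change of -0.78 with an SE of 0.30 (edgeR adjusted p = 0.449). Adequate replicate 1 was the highest library of both lists, with mean log2 CPM of 7.31 for oxidative phosphorylation, against 6.53 to 6.64 in the other 5 libraries. Without it the medians were -0.05 and -0.06. The mitochondrially encoded genes had 10 of 13 above 0, and their median turned to -0.11 without the same library.

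**Figure D5:**
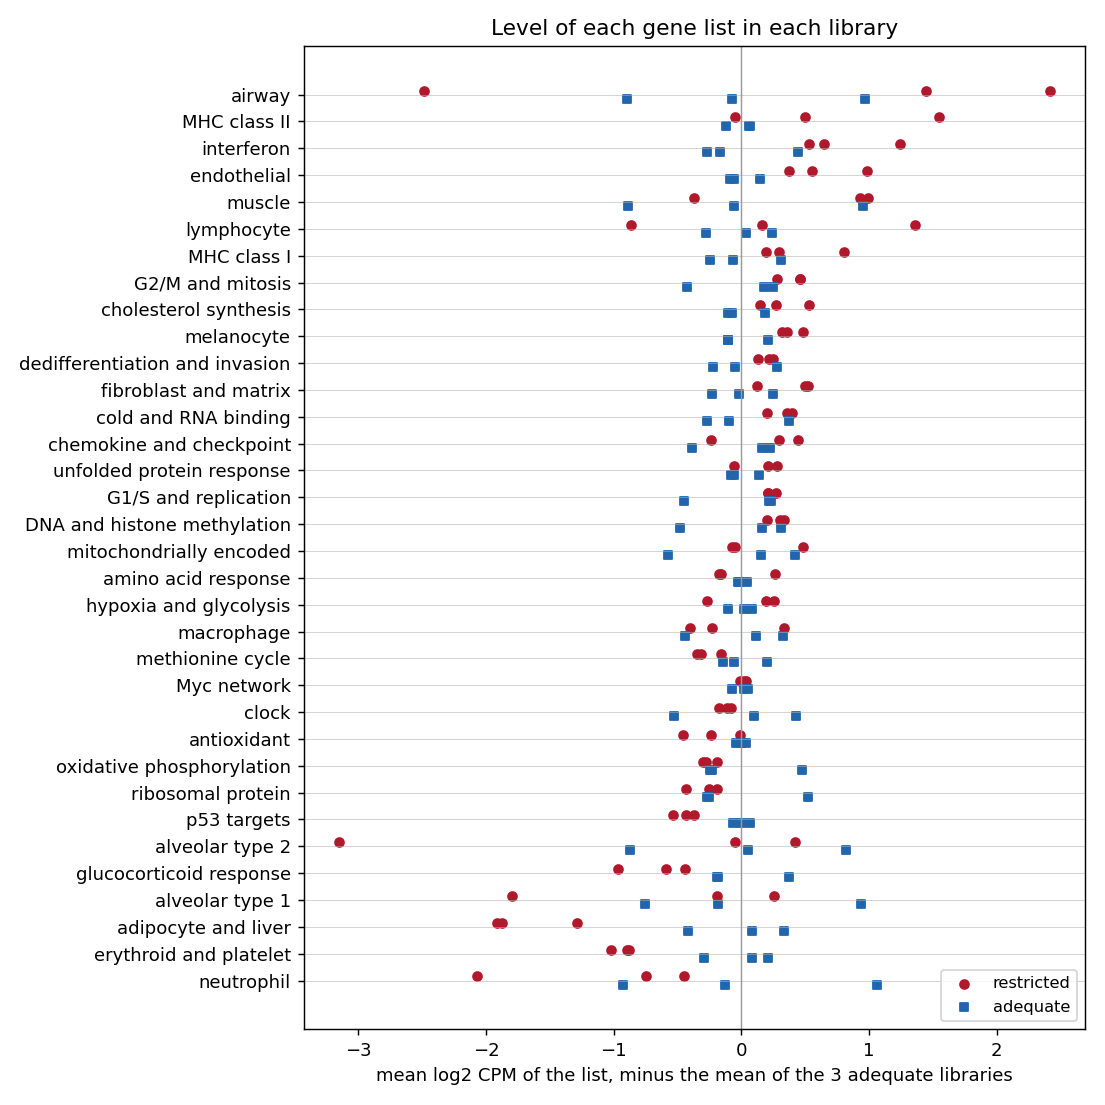
Mean log2 CPM of each gene list in each library, minus the mean of the 3 adequate libraries, with restricted libraries as red circles above adequate libraries as blue squares. Interferon, endothelial and melanocyte levels of the 3 restricted libraries lie above all 3 adequate libraries, p53, glucocorticoid and erythroid levels lie below them, and alveolar and airway levels spread widely with restricted replicate 2 the lowest.

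Red cell markers and most liver markers were lower in restricted libraries. All 7 tested erythroid genes were below 0 and separated between diets (all genes 8.27%). Hbb-bt, a beta globin, was at 4.04, 8.83 and 10.4 CPM in restricted, against 43.5, 32.6 and 40.01 CPM in adequate libraries, a log2 fold change of -2.32 with an SE of 0.81 (edgeR adjusted p = 0.411). Globin copies are near-identical and their single values uncertain. Platelet genes of the same list were divided, with 4 of 6 above 0 and a median of 0.73. Of them 1, the integrin Itgb3, was higher at an unadjusted p under 0.05 (all genes 4.87%). Ppbp was at 0.774, 0.958 and 1.05 CPM in restricted, against 0.252, 0.702 and 0.364 CPM in adequate libraries. Pf4 overlapped, at 1.27, 0.404 and 1.91 CPM in restricted, against 1.39, 2.61 and 1.09 CPM in adequate libraries. The mean log2 CPM of the 6 genes overlapped too, at 0.55, 0.1 and 0.55 in restricted, against -0.38, 0.67 and 0.02 in adequate libraries. Of 7 tested liver genes 6 were below 0, and 3 were lower at an unadjusted p under 0.05 (all genes 4.31%). Alb, the liver's serum albumin, had 28, 0 and 4 counts in restricted libraries, against 364, 259 and 87 in adequate libraries. The liver marker Apoa1 overlapped at 0.719, 1.77 and 0 CPM in restricted, against 4.725, 1.05 and 0.682 CPM in adequate libraries. Fgb, for fibrinogen, and Serpina1a, an antiprotease, are also secreted by the liver and were at no more than 0.0553 CPM in restricted libraries, against 0.682 to 3.15 CPM in adequate libraries. Of 12 neutrophil genes 10 were below 0, with a median of -1.56, which was -0.36 without adequate replicate 2. S100a8 had 14, 8 and 8 counts in restricted libraries, against 73, 118 and 55 in adequate libraries. The groups overlapped in S100a9 (1, 6 and 8 counts, against 33, 64 and 0) and Csf3r (28, 21 and 79, against 23, 112 and 62). These are low counts, and none passed the adjusted test.

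Macrophage genes were evenly divided, with 14 of 28 above 0 and a median of 0.01, which was -0.31 without restricted replicate 3. At a p under 0.05, 1 gene, the Fc receptor Fcgr3, was lower (all genes 4.31%) and none higher. Alveolar type 2 and type 1 lists had 5 of 20 and 4 of 17 genes above 0, no gene with a p under 0.05, and levels of 1.92 for the type 2 list in restricted replicate 2. Without that library the type 2 median was 0.01. In a further edgeR fit of all 15 libraries, the mean log2 CPM of the genes of both alveolar lists entered as a covariate. With it 37 genes passed the adjusted test, 28 of them higher in restricted libraries. These included Klf15 (log2 fold change -1.84, edgeR adjusted p = 0.0212), Helz2 (1.36, edgeR adjusted p = 0.0212), Myc (0.97, edgeR adjusted p = 0.0303) and Ddr2 (0.97, edgeR adjusted p = 0.0322). The part of lung tissue in the results was not tested beyond this fit.

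Among the stress lists, the unfolded protein response had 10 of 19 genes above 0, with its sensor Ern1 at 44.6, 44.6 and 45.6 CPM in restricted, against 18.1, 34.7 and 24.4 CPM in adequate libraries (0.80, edgeR adjusted p = 0.355) and the chaperone Hyou1 at 0.70 (edgeR adjusted p = 0.39). Hypoxia and glycolysis genes had 20 of 34 above 0 and 1 higher at a p under 0.05 (all genes 4.87%), the collagen hydroxylase P4ha1. In the antioxidant list 14 of 16 genes were below 0. At a p under 0.05, 1 was lower (all genes 4.31%), the glutathione reductase Gsr, and 1 higher (all genes 4.87%). The higher one, Nfe2l2, encodes NRF2, the master regulator of antioxidant genes. Nfe2l2 was at 132, 97.8 and 91.9 CPM in restricted, against 75.2, 72.5 and 86.8 CPM in adequate libraries, a log2 fold change of 0.45 with an SE of 0.16 (edgeR adjusted p = 0.433). Lymphocyte genes had 21 of 28 above 0, with 1 higher at a p under 0.05 (all genes 4.87%) and none lower. The chemokine and checkpoint list had 18 of 27 above 0, with 1 higher (Cxcl9) and 1 lower at a p under 0.05 (all genes 4.87% and 4.31%). The lower one was Cxcl13, a chemokine for B cells, at 0 CPM in all 3 restricted, against 1.134, 1.003 and 0.0455 CPM in adequate libraries. Airway genes had 10 of 14 and muscle genes 7 of 9 above 0, with none at a p under 0.05 in either direction.

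Other genes among the 12 with the smallest p in each direction belong to none of the lists. Cnnm2, a membrane protein involved in magnesium transport, was at 24.99, 30.8 and 26.5 CPM in restricted, against 14.2, 12.04 and 16.3 CPM in adequate libraries. Prpf40b, a splicing factor, was at 27.7, 30.4 and 28.4 CPM in restricted, against 16.2, 12.8 and 14.5 CPM in adequate libraries. Zfp41, a zinc finger protein, was at 26.4, 19.7 and 28.5 CPM in restricted, against 12.4, 9.13 and 12.4 CPM in adequate libraries. These 3 were higher in every restricted library than in any adequate one, and the next 7 were lower in every one. Anxa1, an anti-inflammatory protein that glucocorticoids induce, was at 58.9, 67.6 and 47.8 CPM in restricted, against 147, 93.4 and 84.99 CPM in adequate libraries. Psma3, a proteasome subunit, was at 28.4, 33.9 and 21.8 CPM in restricted, against 76.2, 42.7 and 49.4 CPM in adequate libraries. Skap2, an adaptor of immune cells, was at 64.02, 63.3 and 63.3 CPM in restricted, against 109, 102 and 95.7 CPM in adequate libraries, with the restricted libraries close together. Riok3, an atypical kinase, was at 24.8, 31.2 and 31.4 CPM in restricted, against 47.6, 60.98 and 40.2 CPM in adequate libraries. Cela1, an elastase, was at 8.29, 9.63 and 9.74 CPM in restricted, against 20.6, 19.9 and 16.5 CPM in adequate libraries. The predicted gene Gm22973 was at 34.99, 40 and 30.6 CPM in restricted, against 219, 92.9 and 116 CPM in adequate libraries, with adequate replicate 1 the highest library. Tmem37, a protein related to calcium channel subunits, was at 3.92, 2.02 and 4.44 CPM in restricted, against 9.198, 12.9 and 10.9 CPM in adequate libraries, and over the deficient libraries its log2 fold change was -1.49 (edgeR adjusted p = 0.649). Log2 fold changes of these 10 genes ran from -2.02 to 1.14.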

How the data were processed

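RNA from 15 metastasis libraries was sequenced after ribosomal RNA depletion and stranded library construction, per the labels' protocols. The deposited values are RSEM expected counts for 37620 Ensembl IDs. The authors used Bowtie2 2.2.9, RSEM 1.30 and edgeR and genome build NCBIM37, per the submitters' processing notes; whether counting used strand is not given in the sources used here, so reads of overlapping genes on opposite strands may not be separable. Gene symbols were matched by ID for 32897 IDs.

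Expected counts were rounded to whole numbers. edgeR 4.0.16 (R 4.3.3) kept 16001 genes with filterByExpr, scaled libraries by TMM and fitted all 15 libraries with a mean per diet by its quasi-likelihood test, with 11 residual degrees of freedom and a biological coefficient of variation of 0.461. Adjustment was by Benjamini-Hochberg over all genes tested, with a threshold of 0.05. Log2 CPM used a prior count of 2. The step was tested on simulated counts. DESeq2 1.42.0, limma-voom (limma 3.58.1), RLE scaling, other filters, the 6 libraries alone, a lung covariate and leaving out single libraries were alternatives. Total counts of 15209463 to 23006314 in the 6 libraries set the precision, and counts below about 10 per library carry wide counting error. Libraries of a group differed by more than sampling noise and were counted singly.

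Members and gene lists (34 lists, 964 entries, 956 matched) were chosen with earlier results of these data known, and no list was tested. Named genes are the 12 with the smallest p in each direction with a symbol, a mean log2 CPM of at least 1 and libraries that do not overlap, up to 4 members with the smallest p per list, and Asns, Trib3, Mat2a, Myc, Klf15, Tyr, Mki67, Ifnb1, Ifng and Sftpc; some genes the rule takes are not reported here. Some further members are named for their role (Isg15, Chac1, Fkbp5, Tsc22d3, Nr3c1, Cdkn1a, Pecam1, Hspa1a and Prmt6 among them), chosen after their values were seen. Promoter windows are from RefSeq on GRCm38.p6 and were matched by symbol.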

Additional observations from a re-analysis of the deposited data

How the results depend on the processing

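No gene passed the adjusted edgeR test in restricted over adequate libraries with RLE scaling, other filters or the 6 libraries alone, and none with limma-voom. The count was 4 genes without supplemented replicate 5 and deficient replicate 3, 37 with the lung covariate and 127 with DESeq2, and 0 to 5 with each library left out in turn (5 without adequate replicate 1, 2 without adequate replicate 3). The lung covariate gave 2421 genes whose unadjusted p was under 0.05. Over deficient libraries DESeq2 called 9 genes.

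Of 2295 values of 153 named genes, 2230 kept direction and side of the threshold, 59 became calls and 6 changed sign. With each library left out in turn, log2 fold changes ran from -0.026 to 0.552 for mt-Co2, -0.046 to 0.558 for mt-Nd4, -0.254 to 0.108 for Asns, -0.152 to 0.16 for Mat2a and -1.856 to 0.475 for Scnn1a. With limma-voom Muc5b was at -0.206. Of 510 list medians 22 changed sign, 12 of them in lists whose median was at least 0.1 from 0 and 10 in the amino acid response, hypoxia and macrophage lists, whose medians were closer to 0. Leave-one-out medians ran from -0.414 to 0.114 for the clock list, -0.036 to 0.331 for G1/S, -0.122 to 0.35 for mitochondrially encoded, -0.017 to 0.297 for unfolded protein response, -0.034 to 0.286 for methylation, -0.346 to 0.735 for lymphocyte, -0.046 to 0.51 for chemokine, -1.041 to 0.013 for alveolar type 2 and -1.119 to 0.234 for alveolar type 1. Adequate replicates 1 and 2 and each restricted library set at least 1 of these sign changes. With the lung covariate the alveolar type 1 median was 0.139 and the muscle median -0.189. The covariate was computed from the alveolar genes themselves. A fit that holds it takes out alveolar differences by construction, so the alveolar value is not a separate result. The cause of the other changes was not tested. No paired analysis was possible because the replicate numbers are only names given in accession order.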
